A study of Mus musculus with 2 samples.

Results

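Plasmacytoid dendritic cells and their precursors were taken from single-cell transcriptomes of mouse bone marrow by their Siglech transcripts. A cell barcode was counted as a member when it had at least 1000 detected genes, at most 10% of its unique molecular identifiers (UMIs) from mitochondrially encoded genes, at least 3 Siglech UMIs, no UMI of Cd3d, Cd3e or Cd3g, and at most 1 UMI of Cd79a. The rule found 703 members among 7633 barcodes that met the gene and mitochondrial limits (called deep barcodes below) and 28769 barcodes in all. Of these members, 347 came from the knockout library (KO) and 356 from the wild-type library (WT). The KO library was made from C57BL/6 mice with LCR1 knocked out, and the WT library from wild-type mice of the same strain. All mice were 8 to 12 weeks old, males and females were pooled in equal number within a genotype, and no treatment was given. Viable CD45-positive, lineage-negative, CD127-positive marrow cells were sorted from both, where CD127 is the product of Il7r, and the study asked how type 2 innate lymphoid cells (ILC2) develop when LCR1 is missing. Each genotype therefore had 1 library of pooled animals, no difference between KO and WT has a replicate check, and no p-value is given.

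Plasmacytoid dendritic cells are the blood cells that release type I interferon in large amounts when Toll-like receptors in their endosomes meet viral nucleic acid. Their identity rests on the E protein transcription factor Tcf4, which is held in check by Id2 in other dendritic cells, together with Irf8, Spib, Runx2 and Bcl11a. In mouse marrow they can form from lymphoid progenitors that carry the interleukin-7 receptor and Ly6d as well as from myeloid dendritic cell progenitors, and transcripts of Dntt, the template-independent DNA polymerase that adds bases at antigen receptor joints, are read as a trace of the lymphoid route.

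Members were deep libraries. KO members held 4687886 UMIs with a median of 11905 per cell, and WT members 5261143 UMIs with a median of 13336. The median share of mitochondrial UMIs was 5.32% in KO members and 4.98% in WT members. Over all barcodes the libraries stood further apart, with a median of 4078.5 UMIs for 8476 barcodes in KO and 936 UMIs for 20293 barcodes in WT. No barcode sequence was shared between KO and WT members, against 75 shared over all barcodes. What LCR1 is, and where it lies, is not spelled out in the labels, so no count here checks the deletion itself. In ILC2 barcodes, where Id2 is used most, Id2 stood at 267 counts per 1000000 UMIs (CPM) in KO and 1060.3 CPM in WT.

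Promoters of 4 genes that the results turn on are shown for reference: Siglech, which defined the members, Bst2 and Spib, which were lower in Dntt-positive than in Dntt-negative members, and Dntt, which split the members. Each is the 250 bases before the RefSeq gene start (GRCm38.p6), read 5′ to 3′ on the gene's strand. Capitals mark a match on either strand to the E-box CAGGTG, a motif of the kind that E proteins such as Tcf4 bind.
Siglech, chr7:55767934-55768183, plus strand: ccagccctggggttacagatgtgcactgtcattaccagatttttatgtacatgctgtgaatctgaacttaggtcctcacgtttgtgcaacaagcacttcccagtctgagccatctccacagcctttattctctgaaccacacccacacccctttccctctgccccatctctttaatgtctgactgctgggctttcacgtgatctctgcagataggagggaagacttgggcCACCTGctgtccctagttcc
Bst2, chr8:71537473-71537722, minus strand: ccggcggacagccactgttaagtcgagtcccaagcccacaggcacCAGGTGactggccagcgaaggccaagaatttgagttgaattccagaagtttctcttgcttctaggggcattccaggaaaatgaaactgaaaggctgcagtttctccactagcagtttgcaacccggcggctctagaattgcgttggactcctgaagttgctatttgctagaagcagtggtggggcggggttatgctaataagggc
Spib, chr7:44532072-44532321, minus strand: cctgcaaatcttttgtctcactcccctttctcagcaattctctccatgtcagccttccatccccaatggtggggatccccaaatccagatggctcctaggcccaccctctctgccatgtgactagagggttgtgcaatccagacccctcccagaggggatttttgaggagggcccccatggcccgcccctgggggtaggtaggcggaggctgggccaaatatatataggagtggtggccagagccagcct
Dntt, chr19:41029025-41029274, plus strand: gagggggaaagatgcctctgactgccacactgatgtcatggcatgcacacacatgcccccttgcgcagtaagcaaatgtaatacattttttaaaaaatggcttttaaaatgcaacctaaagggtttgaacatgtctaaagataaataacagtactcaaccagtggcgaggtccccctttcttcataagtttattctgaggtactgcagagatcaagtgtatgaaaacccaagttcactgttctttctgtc

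Both strands of these windows were searched for the E-boxes CAGCTG and CAGGTG. The Siglech and Bst2 windows each held 1 CAGGTG, and the Spib and Dntt windows held neither motif. Of 32851 RefSeq promoter windows of the same length, 17.2% held CAGGTG and 27.7% held either. A match describes letters only, and a window without one says nothing about binding.

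The markers named for these cells were high in members of both libraries. Levels are in CPM of the UMIs summed over cells, read from 3′ ends of transcripts, with an exact Poisson interval at 95% that covers counting error only. Irf8, a factor that dendritic cell progenitors depend on, stood at 2189.7 CPM (2148 to 2232) in KO members and 2246 CPM (2206 to 2287) in WT members. Tcf4 stood at 904 CPM (877 to 931) in KO and 1043 CPM (1016 to 1071) in WT. Cox6a2, an isoform of a respiratory chain subunit found in muscle and in plasmacytoid dendritic cells, stood at 1230.0 CPM in KO and 1288 CPM in WT. Pld4, an exonuclease of the endosome, stood at 108 CPM in KO and 133 CPM in WT. Siglech, a sialic acid-binding lectin and the gene of the rule, stood at 645 CPM in KO and 756 CPM in WT, with a median of 7 UMIs per member in KO and 8 in WT.

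Summed over Irf8, Tcf4, Cox6a2 and Pld4, leaving out Siglech since the rule chose by it, members reached 4431 CPM in KO and 4710.0 CPM in WT. The same sum was 1048 CPM in KO and 1221 CPM in WT in lymphoid progenitor barcodes, which were deep barcodes outside the members with UMIs of both Flt3 and Dntt. In ILC2 barcodes, chosen by Il1rl1 and Gata3, it was 103 CPM in KO and 119 CPM in WT. After each cell was thinned to 2000 UMIs, Irf8 was detected in 88.5% of KO members and 92.2% of WT members, against 2.66% of KO and 4.44% of WT ILC2 barcodes, which should lack it. Tcf4 was detected in 76.9% of KO and 80.1% of WT members, against 13.3% of KO and 12.3% of WT ILC2 barcodes. Cox6a2 was detected in 79.5% of KO and 80.4% of WT members, against 1.86% of KO and 2.11% of WT ILC2 barcodes. The members' shares stand far above those of a cell type that should lack the genes. Lymphoid progenitor barcodes lay between, with Irf8 in 31.8% of KO and 49.8% of WT cells. Tcf4 was detected in 45.5% of KO and 54.5% of WT lymphoid progenitor barcodes, and Cox6a2 in 41.2% of KO and 43.7% of WT ones.

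**Figure D1:**
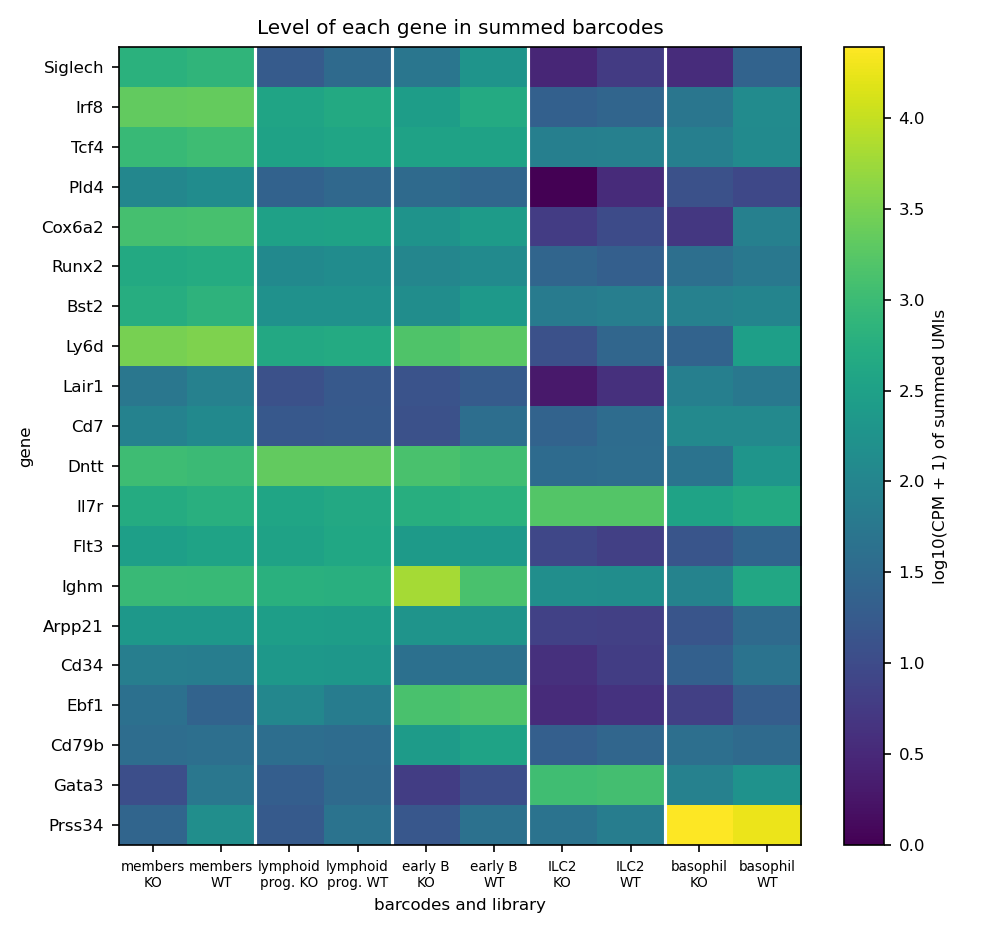
Levels of 20 genes, as log10(CPM + 1) of summed UMIs (colour), in the members and in 4 kinds of other deep barcodes, KO left of WT within each kind. Members hold the brightest cells for Siglech, Irf8, Tcf4, Cox6a2 and Ly6d, and share Dntt, Flt3 and Ighm with the lymphoid progenitor and early B barcodes.

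Several genes of finished plasmacytoid dendritic cells were low or not detected in the same members. Other genes of plasmacytoid dendritic cells stood higher, with Bst2 at 549 CPM in KO and 692 CPM in WT. Mpeg1 stood at 422 CPM in KO and 492 CPM in WT, and Ctsb at 517 CPM in KO and 580 CPM in WT. Spib, an ETS factor of the mature cell, stood at 16.9 CPM in KO and 36.3 CPM in WT. Irf7, the factor that drives interferon genes, stood at 17.9 CPM in KO and 28.1 CPM in WT. Ccr9, the chemokine receptor of resting mature cells, stood at 61.0 CPM in KO and 85.3 CPM in WT, and Ly6c2 at 51.6 CPM in KO and 59.7 CPM in WT. Of the surface and granule genes that late cells carry, Slamf9 had no UMI in either library, Klk1 had 0 UMIs in KO and 2 in WT, Cd209d 0 in KO and 1 in WT, and Klra17 0 in KO and 10 in WT. A count of 0 allows up to 0.640 CPM in KO members and 0.570 CPM in WT members, taken as 3 UMIs.

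The sensing machinery was present in part. Unc93b1, which carries Toll-like receptors to the endosome, stood at 277 CPM in KO and 288 CPM in WT. Without thinning it was detected in 93.1% of KO and 87.9% of WT members, against 10.9% of KO and 8.88% of WT ILC2 barcodes. Depth adds to this gap, since members had a median of 11905 UMIs in KO and 13336 in WT. The ILC2 barcodes had a median of 4894 UMIs in KO and 5639 in WT. Tlr7, a receptor for single-stranded RNA, stood at 24.3 CPM in KO and 31.2 CPM in WT. Tlr9, the receptor for unmethylated DNA, had 4 UMIs in KO and 7 in WT. Over 14 Ifna genes, KO members held 4 UMIs and WT members 1. Ifnb1 had no UMI, which allows a share of cells with a UMI of up to 0.865% in KO and 0.843% in WT, taken as 3 cells. Interferon transcripts were thus not detectable beyond single UMIs at this depth.

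The members also carried genes of lymphoid progenitors. Dntt stood at 1076 CPM (1047 to 1106) in KO and 1000.35 CPM (974 to 1028) in WT. Il7r, whose product the sort required, stood at 506 CPM in KO and 577 CPM in WT. Ly6d, a surface protein of progenitors that leave the multipotent stage, stood at 3115 CPM in KO and 3438 CPM in WT. It is also listed here among plasmacytoid dendritic cell surface proteins, and was lower in lymphoid progenitor barcodes, at 446 CPM in KO and 474 CPM in WT. Its level in members is thus not particular to progenitor genes. Ighm, the immunoglobulin mu constant region, stood at 939.9 CPM in KO and 910.1 CPM in WT, and after thinning was detected in 84.4% of KO and 83.0% of WT members, against 24.2% of KO and 22.0% of WT ILC2 barcodes. Arpp21, a gene of early lymphoid cells, stood at 219.9 CPM in KO and 221 CPM in WT. Flt3, the receptor for the growth factor of dendritic cell progenitors, stood at 302 CPM in KO and 352 CPM in WT.

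Genes of B lineage commitment and of myeloid granules were at low levels. Pax5, a factor of B cell identity, had 9 UMIs in KO and 3 in WT, and Rag1, a recombinase subunit, stood at 6.83 CPM in KO and 4.37 CPM in WT. Ebf1, the factor that opens the B cell programme, stood at 41.0 CPM in KO and 23.6 CPM in WT. Mpo, a granule enzyme of myeloid progenitors, stood at 19.4 CPM in KO and 27.6 CPM in WT, and Csf1r at 16.2 CPM in KO and 8.17 CPM in WT. Not all listed myeloid genes were low. Ly86 stood at 197 CPM in KO and 225 CPM in WT members, above the 88.3 CPM in KO and 113.6 CPM in WT lymphoid progenitor barcodes. Klf4, also listed as an immediate early gene, stood at 138.9 CPM in KO and 90.3 CPM in WT members. Of 9 markers of conventional dendritic cells, 8 had a UMI in members of each library, and 2, Cst3 and Flt3, reached 50 CPM. Cst3, which both kinds of dendritic cell express, stood at 543 CPM in KO and 556 CPM in WT. Zbtb46, Batf3 and Xcr1 had at most 3 UMIs per library. After thinning, 47.8% of KO members (42.5% to 53.2%) and 55.0% of WT members (49.6% to 60.4%) had a UMI of the proliferation genes Mki67 or Top2a, against 34.5% of KO and 55.5% of WT lymphoid progenitor barcodes, 38.9% of KO and 55.6% of WT basophil barcodes and 6.91% of KO and 9.94% of WT ILC2 barcodes. WT members thus did not stand above WT lymphoid progenitor or basophil barcodes in this share.

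Against all other deep barcodes, which the Siglech rule excluded, members had 116 of 3390 measured genes (3.42%) at least 2-fold higher in both libraries and 133 (3.92%) at least 2-fold lower, as a description. Compared with the lymphoid progenitor barcodes alone, a description since the rule chose one side by Siglech and the other by Flt3 and Dntt, members had 79 of 3272 measured genes (2.41%) at least 2-fold higher in both libraries and 19 (0.581%) at least 2-fold lower. A gene was measured with at least 50 UMIs over both sets of cells and 50 CPM in the higher one, and counted when the 95% interval of its ratio left out 1. Lymphoid progenitor barcodes had a median of 14652 UMIs in KO and 4713.5 UMIs in WT, so the WT comparison also sets deeper cells against shallower ones. Among plasmacytoid dendritic cell products, 13 of 16 measured genes were higher and none lower, among surface proteins 7 of 10, and among transcription factors 3 of 13, namely Irf8, Runx2 and Tcf4. Ly6d stood 6.99-fold higher in KO and 7.26-fold in WT, Lgals1, a galectin, 5.83-fold in KO and 4.85-fold in WT, and Runx2 3.87-fold in KO and 3.66-fold in WT. The leading genes also held Cd7, Lair1 and Klrd1, surface receptors shared with natural killer or T cells, and the lysosomal proteases Ctsh and Ctsb.

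Several of the genes lower in members are known from earlier progenitors. Cd34, a sialomucin of stem and progenitor cells, stood at 75.5 CPM in KO members and 216 CPM in KO lymphoid progenitor barcodes, and at 70.9 CPM in WT members and 211 CPM in WT lymphoid progenitor barcodes. Myc, the growth factor-driven transcription factor, stood at 27.5 CPM in KO members against 94.4 CPM in their KO progenitors, and at 25.1 CPM in WT members against 105 CPM in WT progenitors. Ifitm1, Ifitm2, Ifitm3, Mpo, Ebf1 and Cd81 were lower as well. Of the 9 measured genes of lymphoid origin, Ebf1 alone passed the rule of size, and Il7r, Ighm and Arpp21 stayed within 2-fold in both libraries.

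The Siglech threshold lies on a slope. KO cells with exactly 3 Siglech UMIs (46 cells), 2 (81 cells) and 0 (3129 cells) had Irf8 at 1181 CPM, 998 CPM and 142 CPM, and Tcf4 at 481 CPM, 437 CPM and 211 CPM. WT cells with 3 (59 cells), 2 (107 cells) and 0 Siglech UMIs (2224 cells) had Irf8 at 1315 CPM, 1014 CPM and 189 CPM, and Tcf4 at 629.6 CPM, 523 CPM and 212 CPM. Cox6a2 stood at 660.0 CPM and 611 CPM with 3 and 2 Siglech UMIs in KO, and at 835 CPM and 499 CPM in WT. Pld4 stood at 49.0 CPM and 36.6 CPM in KO, and at 80.7 CPM and 63.1 CPM in WT. Cells just outside the rule were thus lower in each of these 4 genes than those just inside it, and both stood below the members' mean. Their median depth was 11228.5 UMIs with 3 and 13234 UMIs with 2 Siglech UMIs in KO, and 8063 UMIs and 3251 UMIs in WT.

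Dntt was detected in most members. It had a UMI in 314 KO members (90.5%, 86.9% to 93.4%) and 329 WT members (92.4%, 89.2% to 94.9%). At 2000 UMIs per cell, which 9 WT members did not reach, the share was 66.9% (61.6% to 71.8%) in KO and 66.3% (61.0% to 71.2%) in WT. At the same depth a Dntt UMI was found in 8.53% of KO and 23.96% of WT basophil barcodes, chosen by Mcpt8 and Prss34, and in 6.38% of KO and 8.67% of WT ILC2 barcodes. The members' share was above these levels in both libraries, and whether those UMIs came from free RNA was not tested. Early B barcodes, chosen by Cd79a, had a Dntt UMI in 73.7% of KO and 73.0% of WT cells at this depth. The members' share did not differ between KO and WT beyond counting error.

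The Dntt-positive members, with at least 1 Dntt UMI, differed from Dntt-negative ones in genes of the plasmacytoid dendritic cell programme. There were 33 Dntt-negative members in KO and 27 in WT. Dntt-positive members had a median of 12122 UMIs in KO and 13697 in WT, and Dntt-negative ones 10789 in KO and 4683 in WT, so depth differed with the split, most of all in WT. With at least 1.5-fold in the same direction in both libraries asked of a gene, 26 of 3332 measured genes (0.78%) were higher and 51 (1.53%) lower in Dntt-positive members. That balance depends on scaling: TMM factors gave 43 higher and 31 lower genes, and median-of-ratios factors 40 and 32. With every cell thinned to 2000 UMIs, where the Dntt classes are also redrawn, 7 genes were higher and 26 lower, and 2 of the 26 higher and 11 of the 51 lower genes passed again.

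Lower in Dntt-positive members were transcription factors, surface proteins and products of plasmacytoid dendritic cells. Tcf4 stood at 849 CPM in Dntt-positive against 1511 CPM in Dntt-negative KO members (0.562-fold, 0.515 to 0.615), and at 1008 CPM against 1889.7 CPM in WT (0.534-fold, 0.482 to 0.593). Spib stood at 13.5 CPM in Dntt-positive against 54.7 CPM in Dntt-negative KO members, and at 32.5 CPM against 129 CPM in WT (0.246-fold in KO and 0.251-fold in WT). Bst2, the tetherin that anchors budding virus, stood at 511 CPM against 967 CPM in KO and 669 CPM against 1249 CPM in WT. Pld4, Ly6c2, the integrin chain Itgb7, the galectin Lgals1, the NADPH oxidase chain Cybb, the cathepsin Ctsb and the immune receptor adapters Tyrobp and Fcer1g were lower in both libraries too. By list, 7 of 18 measured plasmacytoid dendritic cell products, 3 of 11 surface proteins and 2 of 15 transcription factors were lower, and Sox4 was the only listed gene of these 3 groups that was higher. Siglech is 1 of these 3 surface proteins and of the 51 lower genes, but its level is set in part by the minimum of 3 UMIs, which weighs more in shallow cells, and nothing is read from it. Tcf4 and Pld4 were also lower in cells with fewer Siglech UMIs. The minimum may thus bear on the ratios of such genes too, most of all in WT, and this was not tested.

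Irf8, Cox6a2 and Ly6d were lower in Dntt-positive members by less than the 1.5-fold asked, with ratios of 0.741 in KO and 0.695 in WT for Irf8, 0.7497 in KO and 0.829 in WT for Cox6a2, and 0.738 in KO and 0.697 in WT for Ly6d. Ccl5 and Igkc also passed the rule of size in both libraries, but their direction turned under some settings. Ccl5 had 67 UMIs in Dntt-negative KO cells and 27 in WT ones, and Igkc 20 in KO and 38 in WT, so both rest on few counts.

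Several genes of early progenitors were higher in Dntt-positive members. Myl10, a myosin light chain gene, stood at 242 CPM in Dntt-positive against 41.7 CPM in Dntt-negative KO members (5.81-fold, 3.56 to 10.2), and at 179 CPM against 28.7 CPM in WT (6.25-fold, 2.86 to 17.1). H2-Ob, a chain that modulates class II peptide loading, stood at 88.1 CPM against 15.6 CPM in KO and 66.9 CPM against 9.57 CPM in WT. Cd34 stood at 80.2 CPM against 23.4 CPM in KO and 73.6 CPM against 4.78 CPM in WT, the last being 1 UMI. Arpp21 stood at 230.0 CPM against 107 CPM in KO and 228 CPM against 52.6 CPM in WT. Sox4 and Myb, transcription factors of progenitors, Blnk, an adapter of B cell receptor signalling, and the DNA repair protein Xrcc6 were higher too. None of the 24 measured cell cycle genes, 29 oxidative phosphorylation genes or 8 cytokine receptor and STAT genes passed in either direction in both libraries, and Il7r stood at 516 CPM against 404 CPM in KO and 578 CPM against 541 CPM in WT.

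**Figure D2:**
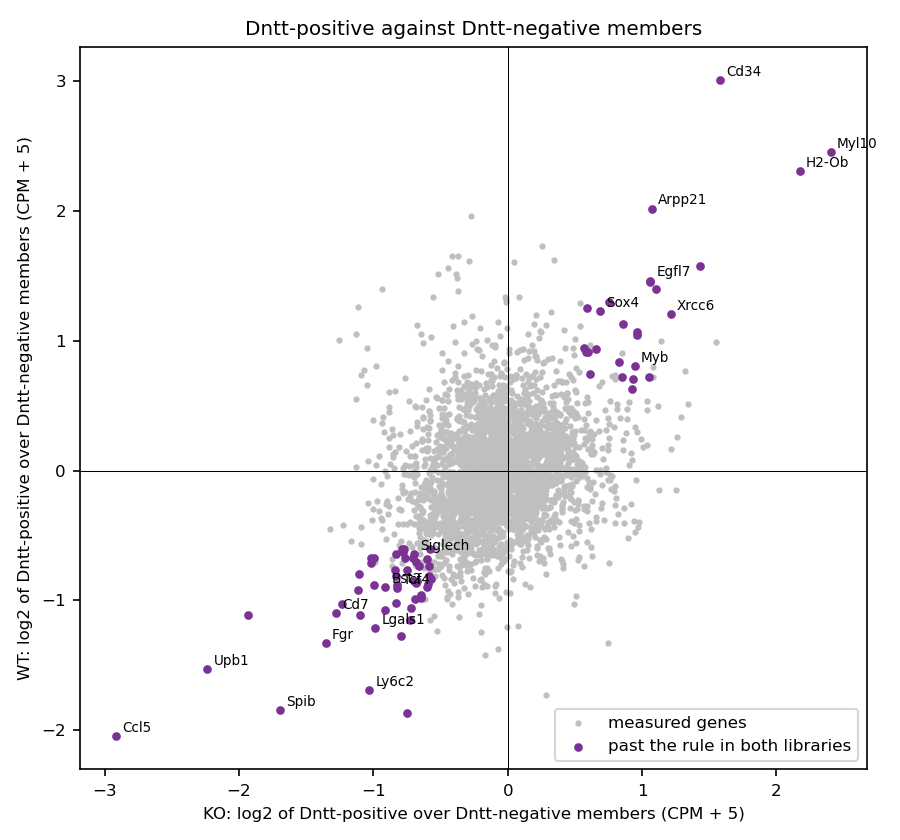
Each point is 1 of 3332 measured genes, with the log2 ratio of Dntt-positive over Dntt-negative members (CPM + 5) in KO on the x axis and in WT on the y axis. The 77 purple genes passed the rule of size in both libraries: Myl10, H2-Ob and Cd34 at the upper right, and Ccl5, Spib and Upb1 at the lower left.

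Binning members by Dntt UMIs in 2000 showed the same contrast as a grade for some genes, with bins chosen after the values of the split were seen. The bins of 0, 1 to 2, 3 to 5 and at least 6 Dntt UMIs held 115, 124, 74 and 34 KO cells, and 117, 126, 75 and 29 WT cells. Median depth was 11001 to 13927 UMIs over the KO bins and 13049 to 14476 over the WT bins, so depth was close to even here. Tcf4 stood at 1240 CPM, 872 CPM, 664 CPM and 547 CPM over the bins in KO, and at 1480 CPM, 996 CPM, 781 CPM and 397 CPM in WT. Irf8 stood at 2682 CPM, 2297 CPM, 1699.6 CPM and 1462 CPM in KO, and at 2821 CPM, 2267 CPM, 1917 CPM and 1075 CPM in WT. Lgals1 stood at 1210 CPM, 883 CPM, 553 CPM and 231 CPM in KO, and at 1409 CPM, 1037 CPM, 768 CPM and 186 CPM in WT. Each of these genes fell at every step in both libraries. Some other listed genes of these cells did not. Irf7, on few UMIs, stood at 23.5 CPM, 10.3 CPM, 16.6 CPM and 31.1 CPM in KO. In WT it stood at 23.6 CPM, 34.5 CPM, 16.2 CPM and 43.6 CPM. Plac8 stood at 2045 CPM to 2431 CPM over the KO bins and 1922 CPM to 2157 CPM over the WT bins. Siglech, Pld4, Ccr9 and Bcl11a rose again in the last KO bin.

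Cd34 rose at every step, at 44.2 CPM, 69.4 CPM, 98.6 CPM and 140.0 CPM in KO and 37.5 CPM, 62.2 CPM, 103 CPM and 139 CPM in WT. Myl10 stood at 95.2 CPM in the lowest and 438 CPM in the highest bin in KO, and at 83.5 CPM in the lowest and 506 CPM in the highest bin in WT. Il7r had no such grade, at 488 CPM to 638 CPM over the KO bins and 545 CPM to 617 CPM over the WT bins. Ighm stood between 915 CPM and 976 CPM in the KO bins and between 748 CPM and 994 CPM in the WT bins. The share of cells with a Mki67 or Top2a UMI was 52.2%, 55.6%, 43.2% and 14.7% over the KO bins and 64.1%, 53.2%, 53.3% and 31.0% over the WT bins, lowest where Dntt was highest in both libraries.

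**Figure D3:**
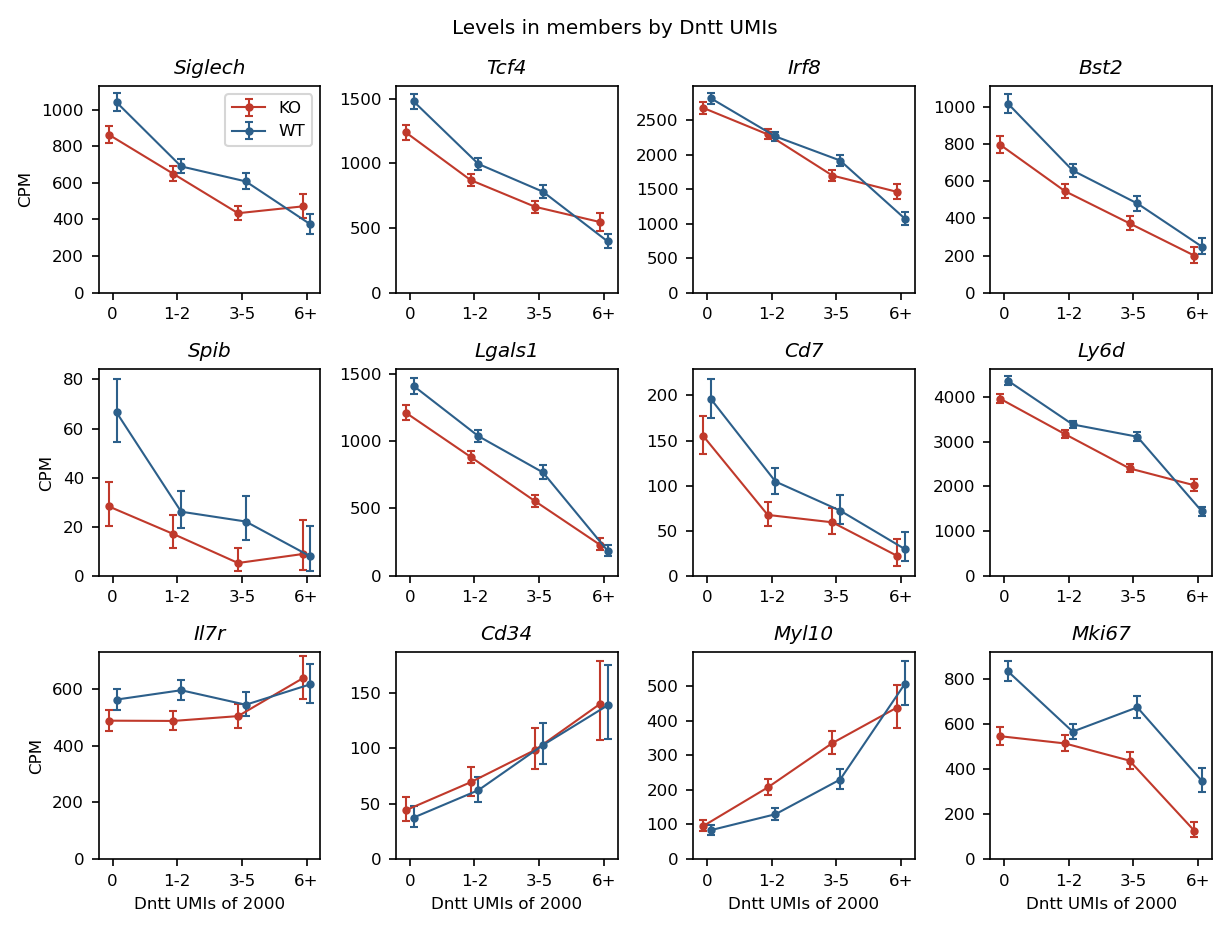
Level in CPM (y axis, from 0) of 12 genes in members grouped by Dntt UMIs after thinning to 2000 UMIs (x axis), KO in red and WT in blue, with 95% Poisson intervals. Siglech (the gene of the rule), Tcf4, Irf8, Bst2, Lgals1, Cd7 and Ly6d are lowest or next to lowest in the bin with the most Dntt, Cd34 and Myl10 highest, and Il7r changes little.

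Members made up 7.99% of deep barcodes in KO (347 of 4343, 7.20% to 8.84%) and 10.8% in WT (356 of 3290, 9.78% to 11.9%). The order of these shares depends on the gene minimum: among barcodes with at least 500 genes, members were 7.73% in KO and 3.99% in WT. Of 10519 WT barcodes with at least 500 genes, 3290 were deep. Fewer cells of this kind and a different depth of the barcodes around them cannot be told apart here.

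Between genotypes, 12 of 3406 measured genes (0.352%) were at least 2-fold higher in KO members than in WT members, and 8 (0.235%) at least 2-fold lower. Several of the genes higher in KO were immediate early genes, which cells switch on within minutes of a stimulus. Fos, a subunit of the AP-1 factor, stood at 1589.8 CPM in KO and 718 CPM in WT (2.21-fold, 2.13 to 2.30). Zfp36, which destabilises cytokine messages, stood at 274 CPM in KO and 111 CPM in WT (2.46-fold, 2.23 to 2.72). Junb, Dusp2, Gadd45b and the histone demethylase Kdm6b were 2.12- to 2.95-fold higher in KO. Ccl4, a chemokine, had 237 UMIs in 75 KO cells and 63 UMIs in 34 WT cells, at 50.6 CPM in KO and 12.0 CPM in WT (4.22-fold, 3.19 to 5.67). Hes1, a target of Notch signalling, stood at 59.1 CPM in KO and 23.4 CPM in WT (2.53-fold, 2.04 to 3.15). Early B barcodes were also higher in KO, 4.47-fold (2.35 to 9.57) for Ccl4 and 2.59-fold (1.91 to 3.59) for Hes1. After thinning, Ccl4 was detected in 6.96% of KO and 2.64% of WT lymphoid progenitor barcodes. Basophil barcodes had it in 29.9% of KO and 13.9% of WT cells, and no thinned ILC2 barcode had it.

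The rest of the genes higher in KO were less clear. Olfr1369-ps1, listed with the symbol of an olfactory receptor pseudogene, stood at 55.0 CPM in KO and 8.17 CPM in WT, but its 258 KO UMIs came from 14 cells, with 59 in 1 of them. Mid1 stood at 61.0 CPM in KO and 28.7 CPM in WT, and the gene models Gm42418 and AY036118, which overlap a ribosomal RNA repeat, stood at 15142 CPM and 374 CPM in KO and 5690.4 CPM and 153 CPM in WT.

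Of the 27 listed immediate early and stress genes, 18 were measured, all 18 had a log2 ratio above 0, and 10 were at least 1.5-fold higher in KO and none lower, against 37 higher (1.09%) and 25 lower (0.734%) of all 3406 genes. Their median log2 ratio was 0.59 in members, beside -0.03 for all genes. The same list had a median of 0.70 in lymphoid progenitor barcodes (14 of 19 measured genes at least 1.5-fold higher, against 1.06% of all genes) and 0.91 in early B barcodes (13 of 18, against 4.28%), where the median of all genes was -0.12. It was 0.82 in basophil barcodes (14 of 19, against 2.28%) and 0.54 in ILC2 barcodes (8 of 18, against 2.67%). The list was thus higher in KO in each of these kinds of barcode, not in members alone, and genotype and library cannot be told apart.

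**Figure D4:**
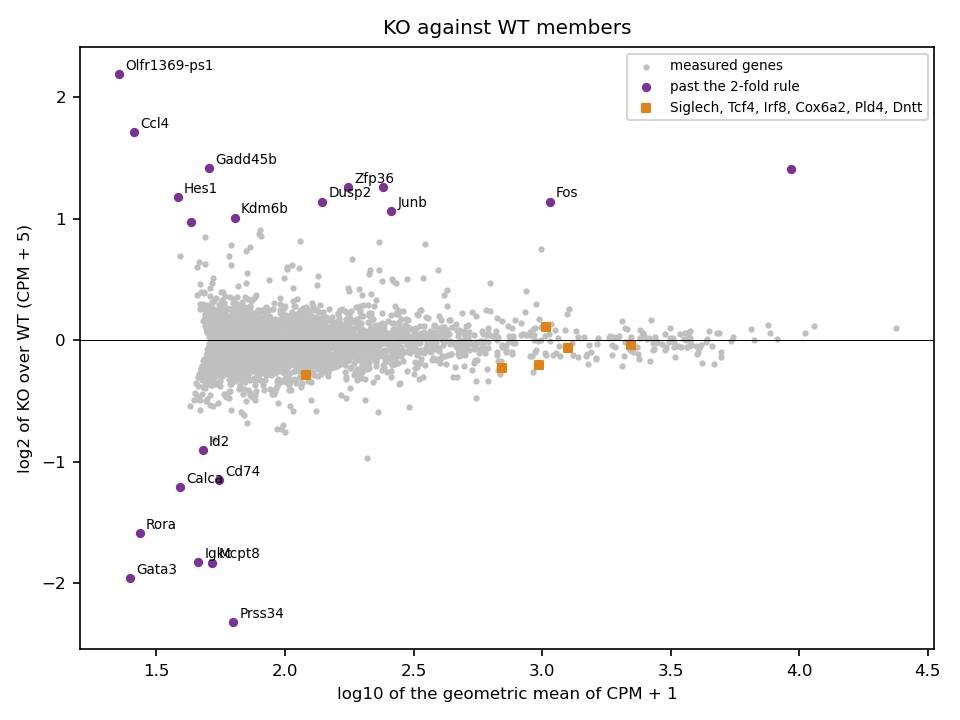
Each point is 1 of 3406 measured genes in members, with the log10 of the geometric mean level (CPM + 1) on the x axis and the log2 ratio of KO over WT (CPM + 5) on the y axis. The 20 purple genes passed the 2-fold rule on CPM, and the 6 orange squares, 5 markers and Dntt, lie near 0.

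The markers of plasmacytoid dendritic cells were slightly lower in KO than in WT members, and none of their measured list genes was 2-fold apart. Tcf4 had a ratio of KO over WT of 0.866 (0.832 to 0.902), Irf8 of 0.975 (0.949 to 1.00), Cox6a2 of 0.955 (0.922 to 0.990), Pld4 of 0.811 (0.722 to 0.911) and Bst2 of 0.793 (0.753 to 0.834). All 12 measured surface proteins, Siglech among them, 14 of 16 products and 11 of 13 transcription factors of these cells had ratios below 1. Their median log2 ratios were -0.21, -0.19 and -0.09, and 3 of these 41 genes (7.32%) were at least 1.5-fold lower in KO, against 0.734% of all measured genes. These were Ly6a, at 38.0 CPM in KO and 70.7 CPM in WT, the inhibitory collagen receptor Lair1, at 54.2 CPM in KO and 85.5 CPM in WT, and the X-linked Cybb, at 73.2 CPM in KO and 125 CPM in WT. Over all genes, 1956 of 3406 had a ratio below 1. In lymphoid progenitor barcodes, 7 of 7 measured surface proteins, 5 of 8 products and 10 of 13 transcription factors did too. These counts were 7 of 9, 8 of 10 and 7 of 13 in early B barcodes, and 5 of 5, 3 of 5 and 3 of 7 in ILC2 barcodes. In basophil barcodes they were 7 of 11, 3 of 8 and 7 of 14. The lean of the surface proteins was thus not in members alone, and genotype and library cannot be told apart.

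Spib fell outside the rule of size, since it stayed under 50 CPM in both libraries. It was detected in 58 KO members (16.7%) and 105 WT members (29.5%), and after thinning in 3.17% of KO (1.59% to 5.601%) and 10.1% of WT members (7.13% to 13.7%). Thinned lymphoid progenitor barcodes had a Spib UMI in 0.571% of KO and 0.813% of WT cells. No thinned ILC2 barcode of either library had one, with upper bounds of 0.976% in KO and 0.777% in WT. Thinned early B barcodes had one in 3.51% of KO cells (4 of 114) and 13.5% of WT cells (5 of 37). On few cells, these shares were near those of members and in the same order. In the bin without a thinned Dntt UMI, Spib stood at 28.3 CPM in KO and 66.6 CPM in WT. Irf7, also under 50 CPM, had a ratio of KO over WT of 0.637 (0.481 to 0.838).

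Genes that respond to interferon mostly had ratios of KO over WT below 1, in 6 of 7 measured. Their median log2 ratio was -0.40, beside -0.03 for all genes. Of 7 measured, Ifi27l2a, at 185 CPM in KO and 282 CPM in WT, and Ly6a were at least 1.5-fold lower in KO, and Irf1, which is also an immediate early gene, was higher at 90.9 CPM in KO and 52.7 CPM in WT, where 0.734% of all genes were lower and 1.09% higher by that fold. Lymphoid genes were close to level, with a median log2 ratio of -0.00 over 9 measured genes, as were 23 cell cycle genes at -0.05 and 29 oxidative phosphorylation genes at -0.04. Dntt itself had a ratio of 1.08, Il7r of 0.878 and Flt3 of 0.858.

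Of the 8 genes lower in KO members, 5 are markers of basophils or ILC2, which the sort also held. Prss34 and Mcpt8, basophil proteases, stood at 25.6 CPM and 25.2 CPM in KO and at 147 CPM and 102 CPM in WT. A single WT cell held 352 of the 776 Prss34 UMIs. Gata3, Rora and Calca, genes of ILC2, stood at 10.2 CPM, 13.4 CPM and 23.7 CPM in KO and at 54.2 CPM, 50.4 CPM and 61.2 CPM in WT. Igkc, the kappa light chain, stood at 22.0 CPM in KO and 90.5 CPM in WT. It was detected after thinning in 4.61% of KO and 15.9% of WT members, against 7.45% of KO and 12.5% of WT ILC2 barcodes. Id2, the inhibitor of E proteins, stood at 33.1 CPM in KO and 66.3 CPM in WT (0.498-fold, 0.410 to 0.604), and Cd74, the class II invariant chain, at 35.0 CPM in KO and 83.6 CPM in WT.

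RNA of other lineages moved with this comparison. Of 10 ILC2 markers, 9 had a UMI in KO members and 10 in WT members, and they summed to 119 CPM in KO and 302 CPM in WT. The 9 basophil, mast cell and eosinophil markers summed to 79.1 CPM in KO and 308 CPM in WT, and the 10 neutrophil markers to 38.2 CPM in KO and 132 CPM in WT, where 1 cell held 179 of the 181 S100a8 UMIs. Members that carried such RNA, by at least 2 UMIs each of Il1rl1 and Gata3, at least 10 of Mcpt8 and Prss34 together or at least 10 of S100a8 and S100a9 together, numbered 4 in KO and 24 in WT. Without them, Id2 stood at 31.8 CPM in KO and 34.2 CPM in WT, a ratio of 0.931 (0.739 to 1.17), so its difference in members rested on those cells. Of the 24 in WT, 17 met the Il1rl1 and Gata3 limit, and Id2 was high in WT ILC2 barcodes. Part of the fall in WT Id2 thus follows from the choice of the cells left out. Rora and Calca, and Gata3 by the choice of the cells left out, no longer passed the rule of size, and 4 genes were lower. Rora stood at 10.2 CPM in KO and 16.0 CPM in WT without those cells, Calca at 8.44 CPM in KO and 12.4 CPM in WT, and Gata3 at 6.71 CPM in KO and 11.4 CPM in WT.

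Cd74 kept its difference, at 35.1 CPM in KO and 86.7 CPM in WT without those cells, although 1 WT cell held 94 of its 440 UMIs. In the other barcodes Cd74 ran the opposite way, at 92.2 CPM in KO and 37.3 CPM in WT in lymphoid progenitor barcodes and 210.04 CPM in KO and 117 CPM in WT in ILC2 barcodes, and the difference between those ratios was not tested. Id2 was lower in KO in ILC2 barcodes (0.252-fold, 0.229 to 0.276), in basophil barcodes (0.213-fold, 0.180 to 0.250) and in lymphoid progenitor barcodes (0.419-fold, 0.368 to 0.478), and stood at 21.1 CPM in KO and 18.8 CPM in WT in early B barcodes.

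**Figure D5:**
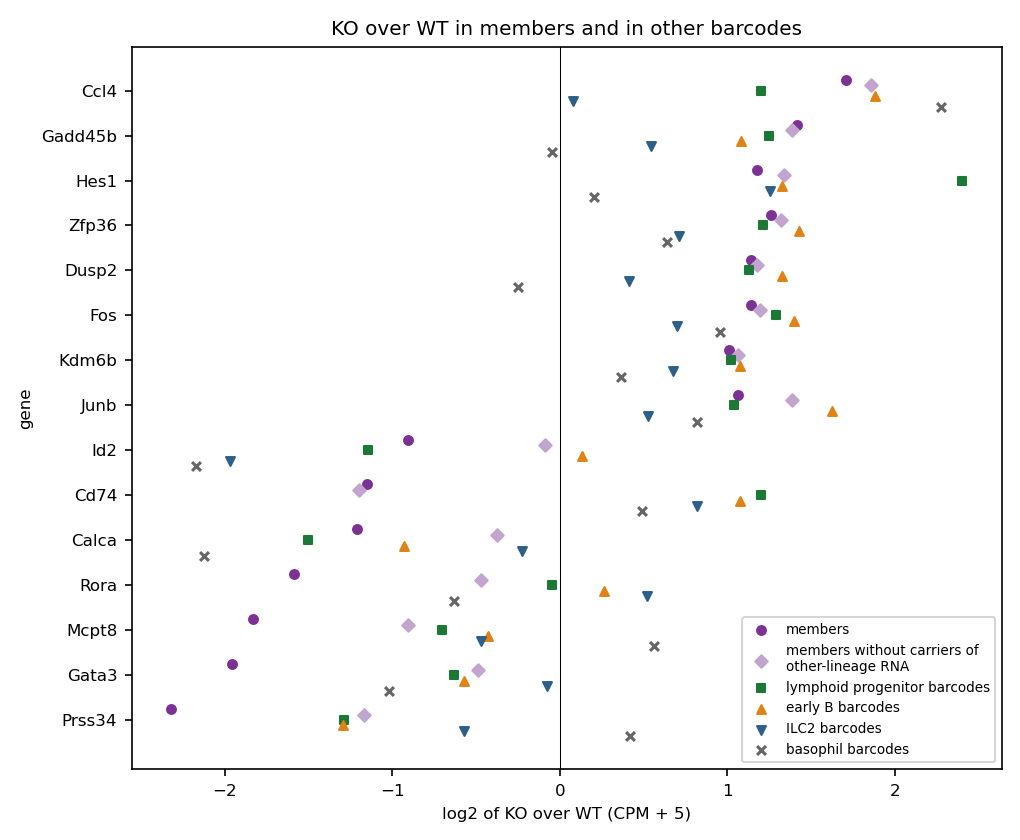
Log2 ratio of KO over WT (CPM + 5, x axis) for 15 genes (rows) in members, in members without the cells that carry RNA of another lineage, and in 4 kinds of other deep barcodes. Fos, Zfp36 and Junb lie right of 0 in every kind, and Id2 lies near 0 in members once carriers are left out but near -2 in ILC2 and basophil barcodes.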

How the data were processed

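The authors deposited 1 matrix per library with unnormalized UMI counts. Per the file headers it came from Cell Ranger 3.1.0. The submitters' processing notes name Cell Ranger, Seurat and the build mm10. What Seurat did, and the gene annotation release, are not given in the sources used here. Libraries were made with the 10x Genomics 3′ kit per the labels' protocols, for 10000 cells and 20000 read pairs per cell. Coordinates in the report are those of GRCm38.p6.

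Counts were summed over the cells of a set and scaled to counts per 1000000 UMIs (CPM). Ratios are of CPM with an exact conditional binomial interval, and log2 ratios are of CPM + 5. Shares have exact Clopper-Pearson intervals at 95%. The rule of size asked for 50 or more UMIs in the pair of sets, 50 or more CPM in the higher set, an interval that leaves out 1, and a fold of at least 2 between genotypes or 1.5, in the same direction in both libraries, for the Dntt split. Cells were thinned to 2000 UMIs once with a fixed seed. Early B barcodes had at least 3 Cd79a UMIs, basophil barcodes at least 3 of Mcpt8 and Prss34 together, and ILC2 barcodes at least 2 each of Il1rl1 and Gata3. Lymphoid progenitor barcodes had at least 1 UMI each of Flt3 and Dntt and at most 1 of Cd79a. All were deep barcodes outside the members without a UMI of Cd3d, Cd3e or Cd3g. A barcode meeting more than 1 of these rules was left out. Carriers of other-lineage RNA were members with at least 10 UMIs of Mcpt8 and Prss34 together or of S100a8 and S100a9 together, or at least 2 each of Il1rl1 and Gata3.

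Scrublet (in scanpy 1.11.5) marked 27 KO cells (0.601%) and 0 of 10519 WT cells, so its calls were not used and no doublets were removed beyond the rule. Leaving out the 8% highest scores was an alternative. The counts were scaled with edgeR 4.0.16 TMM factors in another.

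The members and the gene lists were chosen with earlier results of these data known. By the naming rule, the text may use the 12 most raised and 12 most reduced genes past the rule of size, Id2 and the genes of the lists. Outside the lists it passes over models with no symbol, sex-linked genes, and genes for haemoglobin, ribosomal proteins, T cell receptors and mitochondrial transcripts. Immunoglobulin genes were left out between genotypes. Igkc, Mid1, Gm42418, AY036118 and the bins by Dntt were named or set after their values were seen.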

Additional observations from a re-analysis of the deposited data

Results flagged for a closer look

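For 12 genes the ratio of Dntt-positive over Dntt-negative members ran in opposite directions in KO and WT, each past the 1.5-fold rule in its own library, and the difference itself was not tested. The histone genes, made as DNA is copied, form most of this group. Their log2 ratios in KO and WT were -1.25 and 1.00 for Hist2h2ac, -1.07 and 0.77 for Hist1h1b, -0.93 and 1.40 for Hist1h2ap, -1.11 and 1.26 for Hist1h1d, -1.05 and 0.94 for Hist1h2ae, -0.98 and 0.80 for Hist1h1e, and -0.67 and 1.12 for Hist1h2ab. The replication genes Pold1, a DNA polymerase subunit, at -0.63 in KO and 0.98 in WT, and Esco2, a cohesin acetyltransferase, at -1.13 and 1.05, ran the same way. Pola1, another DNA polymerase subunit and a sex-linked gene, stood at -0.64 in KO and 1.05 in WT. Cep83 stood at -0.57 in KO and 1.02 in WT, and Ankhd1 at 0.75 in KO and -0.71 in WT. The 33 Dntt-negative KO cells had a median of 10789 UMIs, against 4683 UMIs for the 27 in WT, and the part of that depth in these ratios was not tested.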

How the results depend on the processing

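With at least 500 genes per barcode, the member share in WT was 3.99% and the share with a Dntt UMI 85.2%. With at most 5% mitochondrial UMIs, member shares were 5.63% in KO and 8.92% in WT, 5 genes were lower in KO and 15 higher in Dntt-positive members. Shares were 9.85% and 14.1% with at least 2 Siglech UMIs, and 5.76% and 7.84% with at least 5, where 5 genes were lower in KO and 16 higher in Dntt-positive members. Thinned to 2000 UMIs, 66.9% of KO and 66.3% of WT members had a Dntt UMI, 21 genes were higher and 26 lower in KO, and 7 higher and 26 lower in Dntt-positive members. TMM factors gave 43 and 31 genes in the Dntt split, median-of-ratios factors 40 and 32, and a mean of CPM per cell 32 lower ones. A filter at 20 UMIs and 20 CPM gave 19 genes lower in KO, and no filter 127 higher and 228 lower. Without carriers of other-lineage RNA, an alternative chosen after seeing the data, 4 were lower.

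Of the genes called, 8 of 12 higher and 4 of 8 lower in KO were still called after thinning, and 2 of 26 and 11 of 51 in the Dntt split. Over 14 alternatives the log2 ratio of KO over WT stayed between 1.10 and 1.26 for Fos, 1.26 and 1.49 for Zfp36, and 1.54 and 1.99 for Ccl4. Directions turned for Calca (log2 0.25 at 5% mitochondrial UMIs) and in the Dntt split for 4 genes. Ccl5 stood at 0.0024 (5% mitochondrial UMIs) and 0.41 (without the highest Scrublet scores) in KO, and at 0.69 (5 Siglech UMIs), 0.81 (thinned) and 0.38 (without carriers) in WT. Igkc in WT stood at 1.16, 1.93 and 1.28 (5% mitochondrial UMIs, 5 Siglech UMIs, without carriers). Thinned, Cst7 stood at -0.16 in KO and Sema4b at 0.073 in WT. The cause was not tested. No paired analysis was possible because each genotype had 1 library of pooled animals. The Dntt split rests on 33 KO and 27 WT Dntt-negative cells.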
